A study of Mus musculus with 6 samples.

Results

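The imprinted Dlk1-Dio3 miRNA cluster lies on mouse chromosome 12. Its members were taken as the GENCODE M21 genes of type miRNA on the plus strand from the start of Meg3 (109541001 in GRCm38) to the end of Mirg (109749460), with a further 20 kb allowed past that end, in which no miRNA gene was annotated. This gave 59 hairpins of the 1176 mouse hairpins counted. Bone marrow monocytes/macrophages (BMMs) from wild-type C57BL/6 mice were cultured without LPS (control, 3 samples) or with 5 pg/ml of the bacterial endotoxin LPS (3 samples). Control cells received PBS, treatment lasted 4 h, and the medium is named DMEM in the sample labels and RPMI in the methods. Small RNAs were sequenced, and the authors deposited a count for each distinct trimmed read. The sample labels do not say whether the replicates came from separate mice, so the spread between samples may be technical.

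In this domain Dlk1, Rtl1 and Dio3 are protein-coding genes used from the chromosome inherited from the father, while Meg3, Rian, Mirg, a series of C/D box snoRNAs and the miRNAs are transcribed from the chromosome inherited from the mother. The miRNAs are known chiefly from the embryo, the placenta, the brain and mesenchymal cells, and they have also been tied to blood stem cells. A miRNA hairpin is cut into short RNAs from its 5p and 3p arms, and bases 2 to 8 of the mature miRNA, the seed, select its target mRNAs.

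Almost no RNA of this cluster was read in BMMs. Over all 6 samples 39 of 22231906 hairpin reads came from it, and these were 12 distinct sequences. Of the 59 hairpins, 6 had any read, namely Mir127, Mir369, Mir411, Mir409, Mir494 and Mir410, and 53 had 0. Levels are given as RPM, reads per 1000000 hairpin reads of the sample. A count of 0 over all 6 samples allows a level of up to 0.135 RPM (3 counts of the total). For these and the intervals given for single samples, only counting error is covered, and reads without molecular identifiers are not independent molecules.

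The 6 mature miRNAs that were read are shown because they carry every detected signal of the cluster but 1 read. The sequences are those of RefSeq (GRCm38.p6), 5′ to 3′, with the seed in capitals.
miR-127-3p: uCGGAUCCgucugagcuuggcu
miR-369-3p: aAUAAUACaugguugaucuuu
miR-411-5p: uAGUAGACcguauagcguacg
miR-409-3p: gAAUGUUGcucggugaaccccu
miR-494-3p: uGAAACAUacacgggaaaccuc
miR-410-3p: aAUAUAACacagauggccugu
Each of the 6 has a seed of its own, so they form no shared-seed group. The next 4 had 0 reads in every sample. miR-433-3p and miR-136-5p lie, as Mir127 does, opposite Rtl1, miR-379-5p comes from the first hairpin of the distal group, and miR-134-5p is known in neurons for restricting dendritic spines.
miR-433-3p: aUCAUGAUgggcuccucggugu
miR-136-5p: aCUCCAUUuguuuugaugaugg
miR-379-5p: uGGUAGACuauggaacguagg
miR-134-5p: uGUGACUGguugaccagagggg

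By position, the 15 hairpins from the start of Meg3 to the start of Rian had 18 reads, all from Mir127. The 5 hairpins from the start of Rian to Mir379 had 0 reads. The 38 hairpins from Mir379 to Mir410, the distal group, had 21 reads from 5 hairpins. Mir3072, the only hairpin past Mir410, had 0. Hairpins that were read lay among hairpins that were not. Mir412, between Mir409 and Mir369 in Mirg, had 0 reads, as had Mir433 and Mir434, the neighbours of Mir127 on either side.

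**Figure D1:**
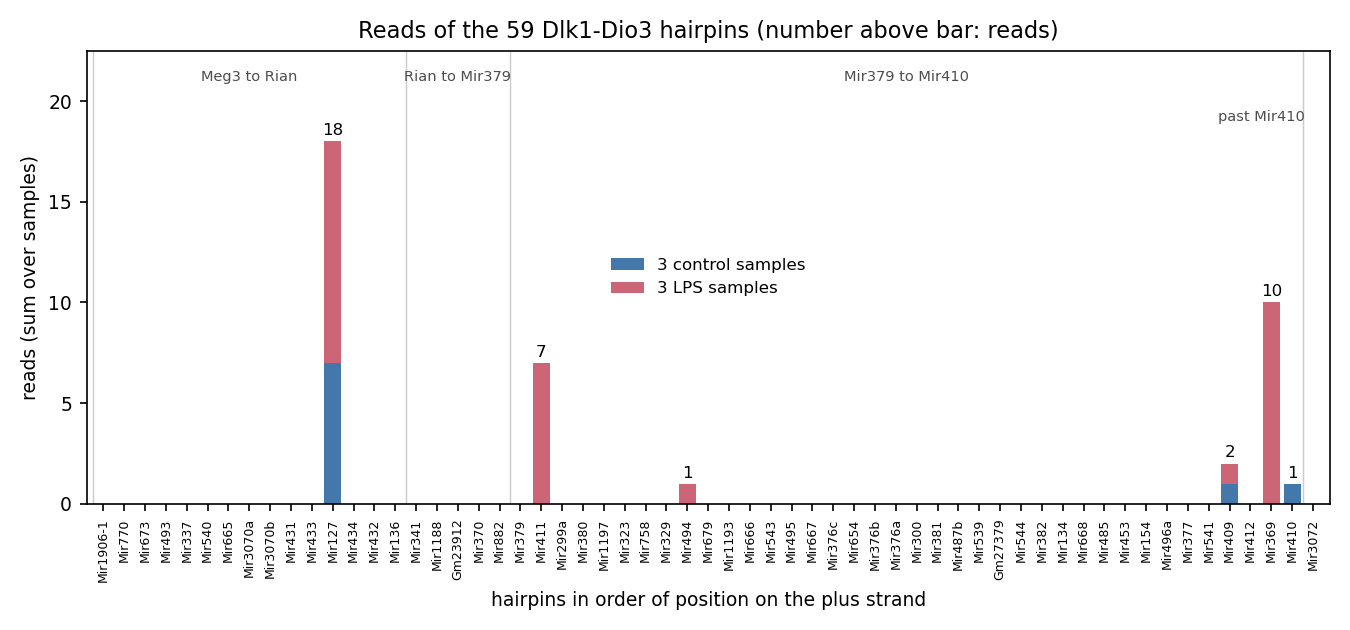
Reads of each of the 59 hairpins in order of position (x axis), summed over the 3 control samples (blue) and the 3 LPS samples (red), with the number of reads above each bar. Mir127 had 18 reads, Mir369 10, Mir411 7, Mir409 2, Mir494 and Mir410 1 each, and the other 53 hairpins had 0.

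Mir127 (chr12:109592846-109592915, plus strand) lies opposite an exon of Rtl1, and miR-127-3p is known to act on the Rtl1 transcript, to which it is perfectly complementary. Its read counts were 2, 2 and 3 for control replicates 1 to 3 and 3, 8 and 0 for LPS replicates 1 to 3. As levels these were 0.782, 1.17 and 1.27 RPM in the control samples and 0.947, 0.732 and 0 in the LPS samples. It was thus read in all samples except LPS replicate 3, the shallowest, where a count of 0 allows up to 2.002 RPM. The mean level was 1.07 ± 0.256 (SD, n = 3) in control and 0.56 ± 0.496 (SD, n = 3) in LPS samples, and the groups overlapped. An exact two-sided permutation test over samples gave p = 0.2. With 3 samples in each group the smallest p it can give is 0.1, and it is larger for a hairpin with reads in only 1 or 2 samples.

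Of the 17 reads of miR-127-3p, 14 were the form tCGGATCCgtctgagcttgg of 20 nt, which ends 2 bases before the annotated 3′ end. This shorter form made up all 8 reads of LPS replicate 2 and all reads of control replicates 2 and 3, while LPS replicate 1 held a read of 21 nt and another of 22 nt and none of 20 nt. The remaining Mir127 read, cTCTGATTcagaaagcca, was read once, in LPS replicate 1. It matched the hairpin over 15 nt only, began 15 bases inside miR-127-5p and ran towards the loop, so it is not a mature form. Without it, miR-127-3p alone was at 0.631, 0.732 and 0 RPM in LPS replicates 1, 2 and 3. Each of these values lay below each control value (0.782, 1.17 and 1.27 RPM). They rest on 2, 8 and 0 reads, and this order was not tested.

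Mir369 (chr12:109743418-109743496, plus strand, overlapping an exon of Mirg) had 0 reads in the 3 control samples and 1, 9 and 0 in LPS replicates 1, 2 and 3. All 10 were the annotated miR-369-3p at full length. The levels in the LPS samples were 0.316, 0.824 and 0 RPM, a mean of 0.38 ± 0.416 (SD, n = 3). Since LPS replicate 3 was at 0 like the controls, the groups overlapped (exact permutation p = 0.4). With reads in only 2 samples the test can give no smaller p, so it cannot decide whether the groups differ. Over the 3 control samples together, a count of 0 allows up to 0.452 RPM. The 10 reads over the 3 LPS samples together were at 0.641 RPM, above that limit, and the 1 read left without LPS replicate 2 was at 0.214 RPM, below it.

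Mir411 (chr12:109710175-109710256, plus strand, outside other annotated genes) had 0 reads in the control samples and 0, 6 and 1 in LPS replicates 1, 2 and 3. These were 0, 0.549 and 0.667 RPM, with a mean of 0.405 ± 0.356 (SD, n = 3) and an exact permutation p of 0.4. Here too this is the smallest p the test can give with reads in only 2 samples. The 7 reads over the 3 LPS samples together were at 0.449 RPM, which does not exceed the 0.452 RPM that 0 reads in the control samples allow. The 6 reads of LPS replicate 2 were the annotated miR-411-5p. The read of LPS replicate 3, aTAGTAGAccgtatagcgtacg, began 1 base earlier, which gives it another seed.

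The last 3 hairpins had at most 2 reads in all. Mir409 (chr12:109743158-109743236) is in an intron of Mirg and had 1 read in control replicate 3 and 1 in LPS replicate 3. The former, aATGTTGCtcggtgaacccct, began 1 base after the annotated miR-409-3p and the latter was the annotated form. Mir410 (chr12:109743715-109743795), which overlaps an exon of Mirg, had 1 read, in control replicate 3. Mir494 (chr12:109715318-109715402), outside other annotated genes, had 1 read, in LPS replicate 2. Each of these had an exact permutation p of 1. For Mir410 and Mir494, with reads in only 1 sample, the test could give no other value. For each of the 6 hairpins with reads the control and LPS levels thus overlapped, for Mir127 only through its loop-side read in LPS replicate 1.

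Nearly all of the few reads began as mature miRNAs do. They were 12 distinct sequences, and 24 of the reads came from LPS replicate 2, so they are not separate observations. Of the 39 reads, 36 began exactly at an annotated mature start, 37 matched a hairpin to their last base, and 0 also matched a hairpin outside the cluster. The 3p arm supplied 31 reads and the 5p arm 8, the latter from Mir411 and the single loop-side read of Mir127. No hairpin had mature reads from both arms.

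Summed over the 59 hairpins, the control samples gave 2, 2 and 5 cluster reads in the order of their replicate numbers, and the LPS samples 4, 24 and 2. Control replicate 1 was at 0.7821 RPM (95% exact Poisson interval 0.09472 to 2.825), control replicate 2 at 1.167 (0.1413 to 4.215) and control replicate 3 at 2.114 (0.6863 to 4.932). LPS replicate 1 was at 1.262 (0.3439 to 3.232), LPS replicate 2 at 2.196 (1.407 to 3.268) and LPS replicate 3 at 1.334 (0.1616 to 4.82). Every interval overlapped every other, and both groups spanned similar levels.

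The mean was 1.354 ± 0.6852 (SD, n = 3) in control and 1.598 ± 0.5197 (SD, n = 3) in LPS samples, a difference of 0.243 RPM against a pooled SD of 0.608. The difference turned to -0.0559 without LPS replicate 2 and to -0.0426 without control replicate 1, and it was 0.623 without control replicate 3. LPS replicate 2 supplied 61.5% of the cluster reads and 49.2% of all hairpin reads.

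**Figure D2:**
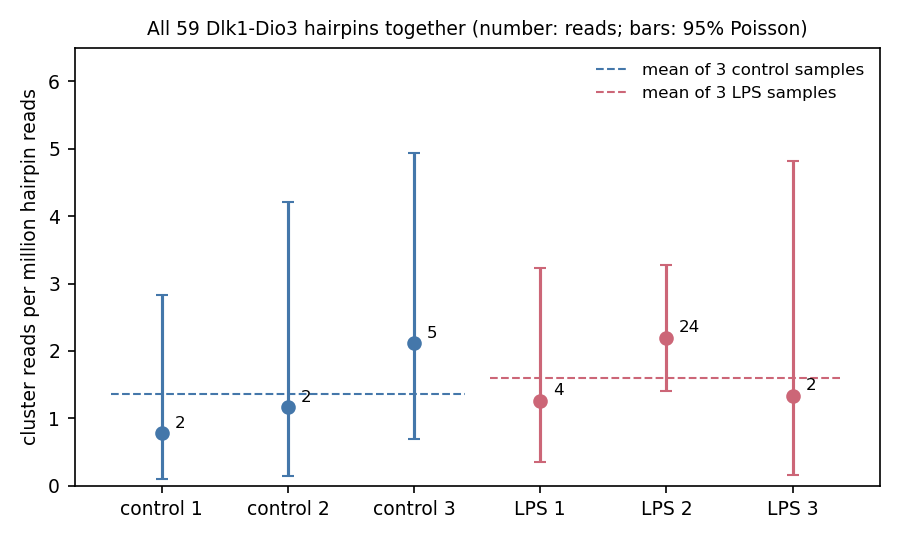
Reads of all 59 hairpins together as RPM (y axis) in each of the 6 samples, with the number of reads beside each point, 95% exact Poisson intervals as bars and group means as dashed lines. The points lie between 0.7821 and 2.196 RPM, and control and LPS samples overlap.

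LPS replicate 2 stood apart in the whole series. It held 17691405 reads against 2201520 to 5148083 in the other 5 samples, and 18.6% of its distinct sequences were read once against 67.1% to 74.6%. This touches the cluster, whose reads in the other 5 samples were mostly single. There, 10 of 12 entries of a sequence in a sample were single reads, while in LPS replicate 2 the 4 sequences had 9, 8, 6 and 1 reads. Whether the file of LPS replicate 2 was collapsed or filtered in another way before deposit is not given in the sources used here. If some of the sequences read once were removed from it, a count of 0 there would not have the same meaning as in the other samples. The part of this difference in the counts of miR-369-3p and miR-411-5p was not tested.

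The comparison of LPS with control samples over all hairpins was run with edgeR's quasi-likelihood test on the counts of each arm. None of the 7 cluster arms with reads passed the low-count filter, whose 319 arms each had at least 58 reads in all, against 17 for miR-127-3p. Among the 319 arms, LPS raised 0 and lowered 0 past an adjusted p of 0.05, that is 0% called. At an unadjusted p under 0.05, 7 were higher and 1 lower by edgeR, 4 and 0 by DESeq2, and 4 and 1 by limma-voom. Without the filter all 7 cluster arms entered the test and 0 passed (smallest adjusted p = 0.907 by edgeR), where 2.16% of 974 arms were called, 21 in all and all higher with LPS. Of unfiltered arms 0 were called without LPS replicate 2.

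The other hairpins give the scale of this near absence. In these counts a read counted for every hairpin it matched, so other hairpins that are copies share reads and are each counted. Of 1117 hairpins outside the cluster, 702 (62.8%) had at least 1 read in the 6 samples, against 6 of 59 (10.2%) in the cluster. At least 100 reads were found for 274 (24.5%) of the others and for 0 of the cluster. By sample, 1 to 4 cluster hairpins were read (1.69% to 6.78%), against 495 to 580 of the others (44.3% to 51.9%). A total of 344 other hairpins (30.8%) each had more reads than the whole cluster. These shares are descriptions and were not tested.

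**Figure D3:**
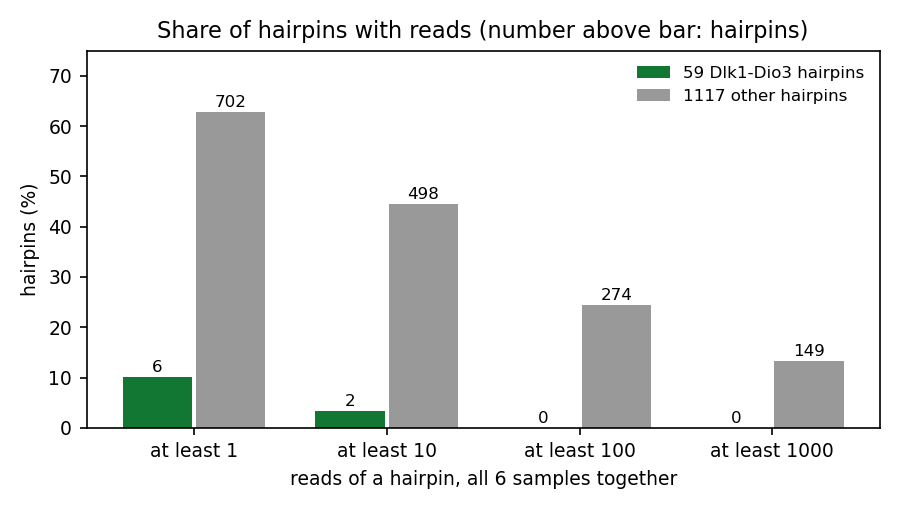
Share of hairpins (y axis, percent) that reached at least 1, 10, 100 or 1000 reads in the 6 samples together, for the 59 cluster hairpins (green) and the 1117 others (grey), with the number of hairpins above each bar. In the cluster 6 hairpins reached 1 read, 2 reached 10 and 0 reached 100, where 274 of the others did. A read counted for every hairpin it matched.

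Lists of hairpins that mark cell types show what else the samples held. Mir223 and Mir142, which mark myeloid cells, summed to 3.2e+04 to 3.7e+04 RPM and were the highest of the 10 cell type lists. The mesenchymal hairpins Mir199a-1, Mir199a-2, Mir199b and Mir214 mark cells known to express the Dlk1-Dio3 miRNAs. All had reads, and they summed to 8.03 to 10.2 RPM in control and 5.34 to 12.9 in LPS samples. The Mir199 hairpins shared most of these reads. Of 210 reads in the list, Mir199a-1 and Mir199a-2 had 194 each and Mir199b 165. Mir214 alone was at 0 in control replicates 2 and 3 and in LPS replicate 3. Of 7 neural hairpins, the 3 for miR-9 held the same 35 reads (0.366 to 3.47 RPM), while Mir124a-1, Mir124a-2, Mir124a-3 and Mir137 were at 0. Of 8 hairpins of pluripotent cells, 1 had reads, 2 in all. The erythroid list stood at 612 to 1.03e+03 RPM, nearly all from Mir486, while the other erythroid hairpins Mir451a and Mir144 had 7 and 4 reads. The muscle list had 4 reads, with Mir1a-1, Mir1a-2 and Mir206 at 0. Mir126a of endothelial cells was at 33.8 to 50.3 RPM. The remaining 3 lists were, as Mir126a, highest in LPS replicate 2. That sample, the deepest, also had most reads of Mir369 and Mir411. By level, Mir411 was higher in LPS replicate 3, at 0.667 against 0.549 RPM. In LPS replicate 2 the 6 epithelial hairpins together were at 173 RPM, against 78.2 to 98.6 in the other samples. Mir200a, Mir200b and Mir200c were highest in that sample, at 46.8, 57.9 and 29.6 RPM. The other epithelial hairpins, Mir141, Mir429 and Mir205, were not highest there. Mir150 of lymphocytes was at 49.2 RPM in LPS replicate 2 against 14.9 to 23.2, and 20 of the 21 reads of the liver hairpin Mir122 were found there. The part of such cells in the 39 cluster reads was not tested, and in bulk samples fewer cells of a type and less RNA per cell cannot be told apart.

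Other hairpin clusters were read at far higher levels. The Sfmbt2 intron cluster, also imprinted but used from the father's chromosome and, as the Dlk1-Dio3 cluster, a long series of hairpins, had reads from 65 of 71 hairpins at 70.1 to 143 RPM. Many of its hairpins are near-identical copies, so reads cannot be tied to single ones there. The 6 hairpins of the miR-17 to 92 cluster, which is known to drive cell proliferation, were at 2.3e+04 to 3.16e+04 RPM, of which Mir92-1 alone supplied 510314 of 556514 reads. The other 5 hairpins of that cluster were at 110 to 821 RPM each. The Dlk1-Dio3 cluster stayed between 0.782 and 2.2 RPM.

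**Figure D4:**
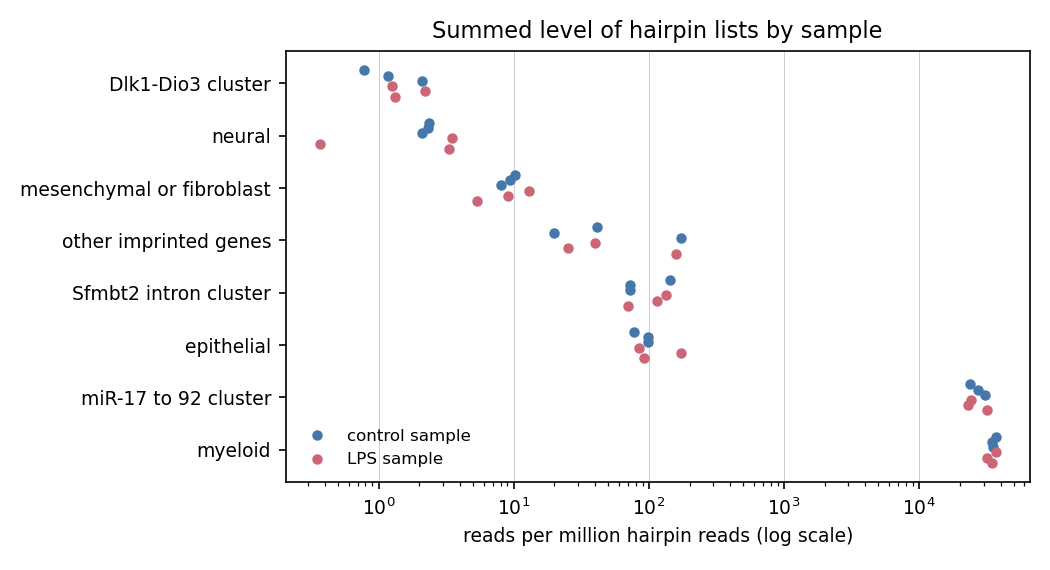
Summed RPM (x axis, log scale) of 8 lists of hairpins in the 3 control samples (blue) and the 3 LPS samples (red), a point for each sample. The Dlk1-Dio3 cluster lies at 0.782 to 2.2 and the myeloid hairpins at 3.2e+04 to 3.7e+04.

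Reads of the other RNAs of the locus were also looked for, a measure the choice of the hairpins did not use. The 23 snoRNA genes of the locus had 0 matching reads, while 423 of 1484 snoRNA genes elsewhere (28.5%) had at least 1. Of all 41 other annotated genes in the window, on both strands and including Meg3, Rian, Mirg and Rtl1, 155 distinct reads (340 in all) matched an exon. Each of these reads also matched a transcript of a gene outside the 41. The cluster hairpins count as outside, so reads of Mir369 and Mir410, which overlap exons of Mirg, can be among them. Reads that matched only these 41 genes were thus 0. The libraries were made for small RNAs, so this says nothing of the long transcripts themselves.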

How the data were processed

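The authors prepared small RNA libraries of 6 BMM samples with an Illumina TruSeq kit, removed adaptor sequence with custom perl code and Btrim64, and deposited raw counts of each distinct read of 11 to 40 nt, without miRNA names. The mirAnalyzer output, for which the submitters' processing notes name the build mm9, was not used here. The samples held 2201520 to 17691405 reads, of which 61.6% to 71% matched hairpins (1498849 to 10927393), and counts of a few reads are the least precise.

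From 18 nt upwards, reads were assigned by exact match to the 1174 GENCODE M21 hairpins named Mir and 2 members named otherwise, allowing 3 unmatched 3′ bases. The arm was set by the hairpin midpoint. Arms were joined where 50% or more of the reads of both were common to them. All 106 RefSeq mature sequences of 57 members were found in their own hairpin by this matching, and the 102 named by arm fell on that arm. One of the 106, miR-1906, also occurs in a hairpin outside. The matching and the test were tested on simulated data. Levels are RPM (reads per 1000000 hairpin reads).

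Groups follow the sample labels. Arms were filtered by filterByExpr, normalised by TMM and compared by edgeR 4.0.16 in R 4.3.3, and single hairpins by exact permutation tests (scipy). The labels number the replicates but do not say that control and LPS samples of equal number are paired. Across arms, deviations from the group means correlated at 0.595, 0.259 and 0.277 for equal numbers and at -0.387 to 0.154 for unequal ones. Deviations from a mean cancel within each group, so these correlations depend on each other and cannot show pairing. The comparison as reported and the permutation tests treated the samples as unpaired, and only the fits with the replicate block used the numbers. Other settings tried were limma-voom (limma 3.58.1), DESeq2 1.42.0, different normalisations, filters and matching rules, the replicate block and each sample left out. The arms to be named were the 20 with the highest mean level, those with the smallest p and those past the threshold. As only 7 arms had reads, all are named, and the search for arms with a like pattern was not run on counts of 0 to 9. The members and lists were chosen with earlier results of these data known.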

Additional observations from a re-analysis of the deposited data

How the results depend on the processing

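The number of arms past the adjusted threshold was 0 in the comparison as reported and in 18 of 20 other fits, among them DESeq2, limma-voom, the other normalisations, the replicate block and all fits with 1 sample left out. Without the low-count filter 21 arms passed, all higher with LPS, and 11 passed with the replicate block and no filter. Without the filter and without LPS replicate 2 the number was 0. The latter 2 fits were chosen after seeing the data. With the replicate block and the filter 0 arms passed, as without the block, so the block changed no other call. Cluster arms entered 3 fits, those without the filter, and 0 passed in any. Fold changes of single cluster arms are not given, since no arm passed the filter.

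The difference of the cluster level between LPS and control samples stayed within 1 SD of 0.243 RPM under all 13 alternatives. It ranged from -0.0559 to 0.623 with 1 sample left out. It was 0.313 with exact matches only, 0.139 with reads of at least 20 nt and 0.0998 on the scale of all reads of the file. With 1 mismatch allowed, or with all 2202 genes of type miRNA as hairpins, it was 0.243, both chosen after seeing the data. Depth limits every hairpin, as 0 reads in the shallowest sample still allow 2.002 RPM.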

Other observations

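Although the cluster was nearly unread, some of its seeds were present on other miRNAs. The 106 mature sequences of the cluster hold 97 distinct seeds, of which 9 are shared by 2 members. Of the 97, 72 were at the start of 0 hairpin reads in the 6 samples and 3 were at the start of at least 100. The seed ACACACC of miR-329-3p began 1450 reads, all from Mir362-3p, at 59 to 79.5 RPM in every sample. The seed GGAGAGA of miR-882 began 2105 reads, nearly all from Mir185-5p, with 169 RPM in LPS replicate 2 against 19.6 to 28 in the other samples.

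Hairpins of other imprinted genes, chosen after the cluster had been seen to be nearly unread, were not uniform. Mir675 of H19 and Mir483 of Igf2 were at 0 in all samples, and Mir335 of Mest had 12 reads, all in LPS replicate 2. Mir298 and Mir296, which share a transcript of the Gnas domain, were highest in both samples numbered 3. Mir298 was at 159 and 141 RPM in control and LPS replicate 3, against 18.7 to 37.1 in the other 4 samples, and Mir296 at 13.9 and 19.3 against 1.17 to 4.3. These values were noticed in the data and not tested.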
